A study of Mus musculus with 2 samples.

Results

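The S100 genes studied here, which encode small calcium-binding proteins with EF-hand motifs, were followed across the leukocytes of the mouse omentum. They are S100a8, S100a9, S100a4, S100a6, S100a10, S100a11 and S100a13. They were taken by symbol, by a rule that uses no measured value although earlier results of these data were known, and are 7 of the 19960 genes listed. The comparison was made in 6 classes of cells (neutrophils, monocytes, macrophages, T cells, B1 B cells and plasma cells), in wild-type (WT) mice and in Postn-DTR mice, called DTR below.

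S100 proteins form dimers that expose a binding surface when calcium enters the cell, and most act by gripping a partner protein. S100a8 and S100a9 encode the chains of calprotectin, which makes up much of the cytosolic protein of neutrophils, withholds zinc and manganese from microbes and, once released, is a ligand of the receptors encoded by Tlr4 and Ager. S100a4 binds non-muscle myosin (Myh9), S100a6 binds the ubiquitin ligase adaptor Cacybp, S100a10 forms a calcium-independent complex with annexin A2 (Anxa2) and Ahnak, S100a11 pairs with annexin A1 (Anxa1), and S100a13 takes part in the export of Fgf1 and Il1a, which lack a signal peptide.

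The omentum is a fold of abdominal fat that holds lymphoid aggregates called milky spots, and the study asked how they depend on a subset of fibroblastic reticular cells. WT mice and mice with the diphtheria toxin receptor inserted at the Postn locus by CRISPR in C57BL/6 zygotes were both given diphtheria toxin (DT), and both were sampled 5 days later, so the controls also received the toxin. The receptor is driven by Postn, a gene of mesenchymal cells that is not restricted to the omentum, and no age or sex was found in the labels or methods. The mice of a group were pooled for capture, which leaves 1 library for WT and 1 for DTR, no replicate and no test. Every interval below is an exact 95% interval that covers counting error only.

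The transcripts were counted as unique molecular identifiers (UMIs) in droplets. The WT library kept 8654 cells with a median of 5635 UMIs and the DTR library 5727 cells with a median of 8472, and 65 barcode sequences occurred in both. Clustering without the S100 genes gave 31 clusters, of which 26 could be named from markers. T-like cells were 3146 in WT and 507 in DTR, B1 B-like cells 1097 and 480, plasma-like cells 621 and 2233, neutrophil-like cells 240 and 740, macrophage-like cells 120 and 329, and monocyte-like cells 169 and 221. A separate class of granulocyte precursor-like cells, which expressed the primary granule genes Mpo and Elane, held 120 and 209 cells. Unlike the library medians, median depth within most of these classes was lower in DTR. It was 8799 UMIs in WT and 3285.5 in DTR neutrophil-like cells, and 29701 and 23862 in plasma-like cells. It was 8520 and 6588 in B1 B-like, 5069.5 and 3612 in macrophage-like and 4652 and 4293 in T-like cells. Monocyte-like cells had 10594 and 10891, and granulocyte precursor-like cells 35748 and 23472. All markers of 5 of the 6 classes were higher there than in the other cells, whereas Cd5, Cd9 and Spn of the 8 B1 B markers were not. The same marker lists had named the classes, so this is not an independent check. The monocyte-like cluster also held cells with granulocyte genes, as given below.

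An entry was found for 6 of the 7 genes in RefSeq's promoter table for GRCm38.p6, with none for S100a10. The 250 bases before RefSeq's annotated start are printed for the pair that marked neutrophils, for S100a4, which was nearly absent from them, and for S100a11, which was found in every class. Capitals mark matches, on either strand, to the TATA box (TATAAA, in 12.4% of all 32851 promoters of this length), a C/EBP motif (TTNCNNAA, in 36.8%), an AP-1 motif (TGANTCA, in 6.75%) or a GC box (GGGCGG, in 32.7%).
S100a8, chr3:90668821-90669070, plus strand: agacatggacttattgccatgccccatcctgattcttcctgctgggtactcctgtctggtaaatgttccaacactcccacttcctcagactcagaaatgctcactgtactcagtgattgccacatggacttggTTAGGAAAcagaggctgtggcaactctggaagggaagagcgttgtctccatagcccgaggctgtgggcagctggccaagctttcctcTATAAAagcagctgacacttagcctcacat
S100a9, chr3:90695722-90695971, minus strand: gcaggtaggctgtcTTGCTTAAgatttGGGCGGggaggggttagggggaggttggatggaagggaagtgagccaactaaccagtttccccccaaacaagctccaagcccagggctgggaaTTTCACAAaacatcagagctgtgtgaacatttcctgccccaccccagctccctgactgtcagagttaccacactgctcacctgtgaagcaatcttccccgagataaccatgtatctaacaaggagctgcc
S100a4, chr3:90603520-90603769, plus strand: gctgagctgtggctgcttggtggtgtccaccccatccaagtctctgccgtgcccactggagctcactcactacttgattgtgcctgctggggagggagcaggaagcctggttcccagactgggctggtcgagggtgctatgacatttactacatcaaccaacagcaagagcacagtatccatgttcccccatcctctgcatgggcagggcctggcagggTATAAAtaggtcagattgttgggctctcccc
S100a11, chr3:93520246-93520495, plus strand: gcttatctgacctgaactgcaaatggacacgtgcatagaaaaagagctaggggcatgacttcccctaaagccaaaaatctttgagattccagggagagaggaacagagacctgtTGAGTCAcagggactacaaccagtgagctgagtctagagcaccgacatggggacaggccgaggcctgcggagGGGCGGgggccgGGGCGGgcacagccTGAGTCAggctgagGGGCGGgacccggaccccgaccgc

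S100a8 and S100a4 had a TATA box that began 30 and 31 bases before the start, and 1.99% of all promoters held one on the gene strand beginning 20 to 40 bases before the start. In S100a9 the same letters stood at bases 1 to 6 after the annotated start, outside the printed window. The 2 C/EBP matches of S100a9 began 236 and 130 bases before the start, and that of S100a8 began 117 bases before it. S100a11 held 3 GC boxes and 2 AP-1 matches, and S100a9 held 1 GC box. The windows of S100a6 and S100a13 held none of these letters. A match is a description of the letters and not evidence of binding. All 7 genes lie on chromosome 3, with S100a13, S100a4, S100a6, S100a8 and S100a9 between 90514435 and 90695721 and S100a11 and S100a10 between 93520488 and 93564643. The annotation places S100a4 under a longer read-through gene, Gm42674, that is not among the listed genes, so reads from both could not be told apart.

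S100a8 and S100a9 were transcripts of granulocytes. Neutrophil-like and precursor-like cells together held 98.6% of the S100a8 UMIs of the WT library and 95.4% of those of the DTR library, and 98.7% and 96.1% for S100a9. The level of a gene in a class is the mean over its cells in UMIs per 10000, and levels of different genes are compared as transcripts counted, which a UMI gives without regard to length. S100a8 stood at 953 in WT neutrophil-like cells and 682 in DTR, and S100a9 at 1521 and 1048. Single cells spread widely, with S100a8 at 427, 1011 and 1319 at the 10th percentile, the median and the 90th percentile in WT, and at 170, 732 and 1112 in DTR.

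Both calprotectin genes were lower in DTR neutrophil-like cells, by less than 1.5-fold in the main setting. The log2 ratio of DTR over WT was -0.48 for S100a8 and -0.54 for S100a9, and from summed UMIs it was -0.30 (interval -0.31 to -0.29) and -0.37 (-0.38 to -0.36). With the class median at 0 (-0.60 and -0.66) and with cells chosen by gates on marker UMIs (-0.59 and -0.63) both were past the limit. The class differed in make-up between the libraries. Of the 240 WT cells, 184 lay in cluster 13, marked by the secondary granule genes Ltf, Ngp and Camp, whereas 475 of the 740 DTR cells lay in cluster 7, marked by the mature neutrophil genes Csf3r, Cxcr2 and Il1r2. S100a8 was higher in cluster 13 (1049 in WT, 957 in DTR) than in cluster 7 (637 and 528), and S100a9 likewise (1642 and 1353 against 1127 and 878). Within clusters the log2 ratios shrank to -0.13 and -0.27 for S100a8 and to -0.28 and -0.36 for S100a9, and with both libraries weighted to the same make-up they were -0.19 and -0.31. Stage genes differed in the whole class too: 4 of the 6 secondary and tertiary granule genes were at least 1.5-fold lower in DTR and all 5 mature neutrophil genes were at least 1.5-fold higher. These lists share genes with the marks of the 2 clusters, so they are not separate evidence of the make-up. In the whole class 18.3% of 4257 genes were at least 1.5-fold higher and 9.16% at least 1.5-fold lower.

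In granulocyte precursor-like cells the pair was already high, at like levels in both libraries. S100a8 stood at 465 in WT and 467 in DTR, and S100a9 at 699 and 766. The range over cells was broad, from 0.501 at the 10th percentile to 1007 at the 90th for S100a8 in WT and from 9.60 to 816 in DTR. The primary granule genes of these cells were at least 1.5-fold lower in DTR for 3 of 4 (Mpo, Prtn3 and Ctsg), where 8.6% of 7093 genes were. 

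**Figure D1:**
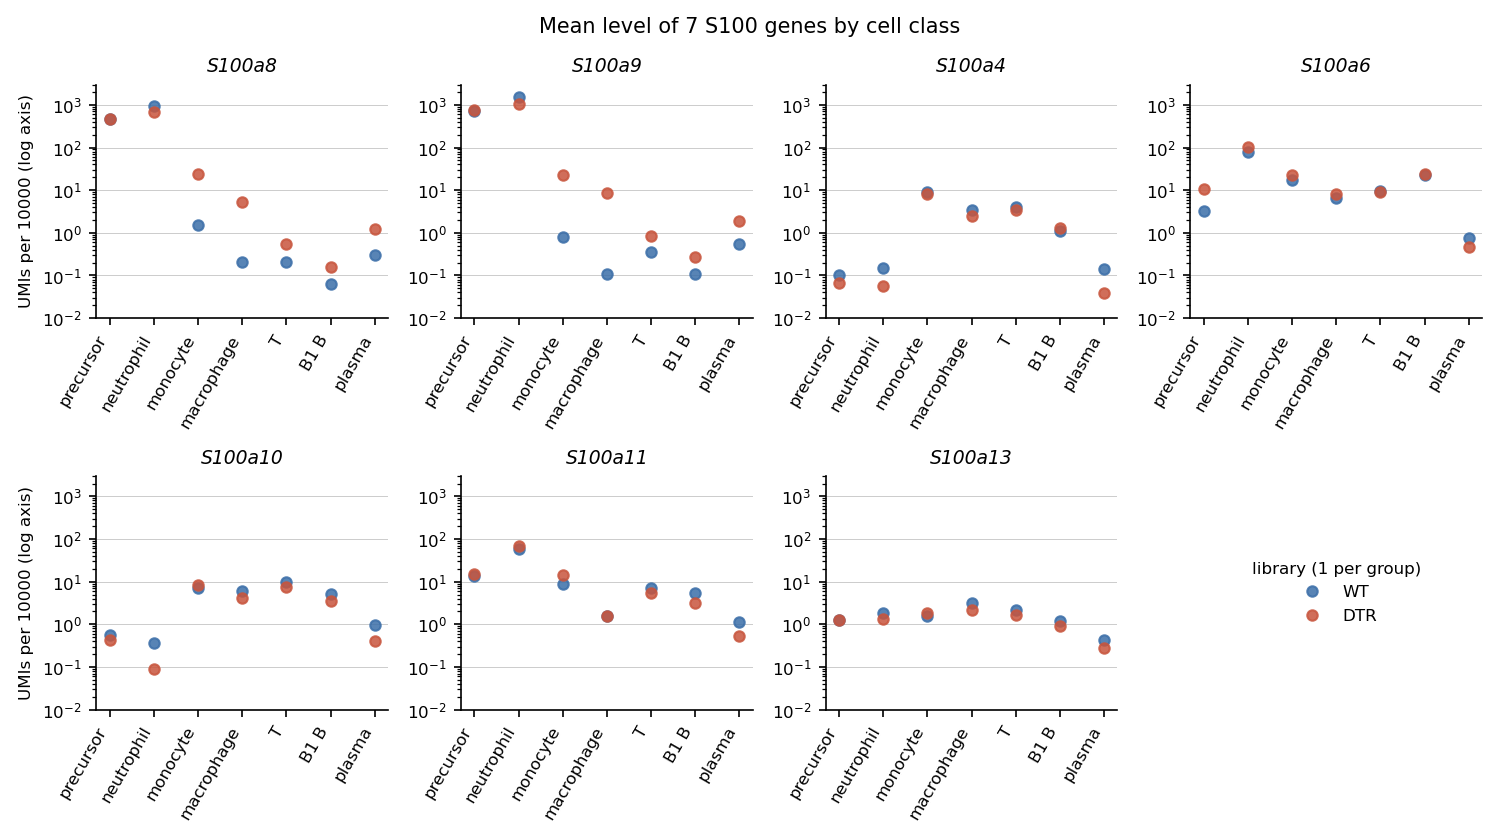
Mean level over cells in UMIs per 10000 (vertical log axis) of each S100 gene in the granulocyte precursor-like class and the 6 classes compared, for the WT and the DTR library (1 point each, no replicates, so no error bars). S100a8 and S100a9 reached 953 and 1521 in WT neutrophil-like cells, S100a4 and S100a10 were lowest in granulocytic or plasma-like cells, and S100a13 varied least over the 6 classes.

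Outside the granulocytes both S100a8 and S100a9 were low in WT and higher in DTR in every class compared. In T-like cells S100a8 stood at 0.211 in WT and 0.556 in DTR (log2 ratio 1.40) and S100a9 at 0.355 and 0.854 (1.27). In B1 B-like cells S100a9 stood at 0.111 and 0.277 (1.32), and S100a8, with too few UMIs to be ranked, at 0.0639 and 0.154. These levels were below those of B2 B-like cells, at 0.215 and 0.858 for S100a9 and 0.0815 and 0.841 for S100a8. In plasma-like cells the levels were 0.308 and 1.24 for S100a8 (2.01) and 0.545 and 1.89 for S100a9 (1.80). In macrophage-like cells the values were 0.211 and 5.17 (4.62) and 0.106 and 8.42 (6.31), from 13 and 7 UMIs in WT. Monocyte-like cells had levels of 1.54 and 23.3 (3.92) and 0.813 and 22.1 (4.77).

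In T-like, plasma-like and DTR macrophage-like cells most of these UMIs sat in few cells, which also held neutrophil genes. Cells were marked as holding them when they had UMIs of at least 3 of 13 neutrophil genes (Retnlg, Lcn2, Camp, Ngp and others) or of 2 of the 4 primary granule genes, a rule added after the data were seen. Such cells numbered 5 of the 3146 T-like cells in WT and held 90.3% of the S100a8 UMIs of that class, and 7 of 507 in DTR held 84.9%. In plasma-like cells 79 of 2233 DTR cells held 96.6%, and in macrophage-like cells 28 of 329 DTR cells held 96.1% while no WT cell met the rule. B1 B-like cells were different, since no WT cell met the rule and the 6 DTR cells that did held 2.33% of the S100a8 and 3.66% of the S100a9 UMIs. A single WT plasma-like cell held 97.9% of that class's S100a8 UMIs. The summed UMIs of the neutrophil list were also higher in DTR in these classes. They were 0.652 and 2.32 UMIs per 10000 in T-like cells, 0.169 and 0.342 in B1 B-like cells, 0.793 and 1.68 in plasma-like cells and 1.22 and 22.6 in macrophage-like cells. Gene by gene, 7 of the 13 were higher in DTR in T-like, 8 in B1 B-like, 12 in plasma-like and 11 in macrophage-like cells. Mmp9 and G0s2 were at least 1.5-fold lower in T-like cells, and Mmp9 in macrophage-like cells. The part of neutrophil RNA in these differences was not tested.

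In T-like cells the UMIs lay in the cycling cluster 23, with 1021 of the 1142 S100a8 UMIs in WT and 309 of 365 in DTR, and the levels there were close, at 4.36 and 4.90. The other 6 T-like clusters had S100a8 at 0.0277 to 0.132 in WT and 0.145 to 0.376 in DTR. In plasma-like cells the ratio also turned on few cells. Without called doublets, a call that acts on the DTR library only, it was 0.51 for S100a8 and 0.28 for S100a9, both under 1.5-fold, and with cells chosen by gates on marker UMIs it was 0.18 and 0.13. Of the 5 plasma-like clusters, cluster 18, led by cell cycle genes such as Cdc20, went the other way, with S100a8 at 3.54 in WT and 0.539 in DTR, and it held the WT cell named above. Cluster 19, in which 10.9% of cells were called doublets, had S100a8 at 11.5 in DTR. Macrophage-like cells chosen by gates gave log2 ratios of 0.84 for S100a8 and 1.32 for S100a9, and T-like cells clustered with the S100 genes included gave 0.41 and 0.33, both under 1.5-fold.

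Without the cells that held neutrophil genes, the lower levels that remained were still higher in DTR. S100a8 was then at 0.0766 in WT and 0.267 in DTR T-like cells, 0.0238 and 0.0884 in plasma-like cells, and 0.211 and 0.604 in macrophage-like cells, and S100a9 followed with 0.167 and 0.418, 0.0289 and 0.111, and 0.106 and 0.645. When each cell was thinned to 1000 UMIs, an S100a8 UMI was found in 0.798% of T-like cells in WT (interval 0.517 to 1.18) and in 2.98% in DTR (1.68 to 4.86). B2 B-like cells, which are not known to make calprotectin, gave 0.742% and 2.05%, with median depths of 4391 and 3251 UMIs before thinning against 4652 and 4293 in T-like cells. The shares in T-like cells were thus at the level of this background in both libraries and are not read as expression. The levels of both genes in B1 B-like cells, which were below those of B2 B-like cells, are not read as expression either. S100a8 gave 40.7% of the summed S100a8 and S100a9 UMIs of WT T-like cells and 40.5% in DTR, next to 38.7% and 39.8% in neutrophil-like cells.

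**Figure D2:**
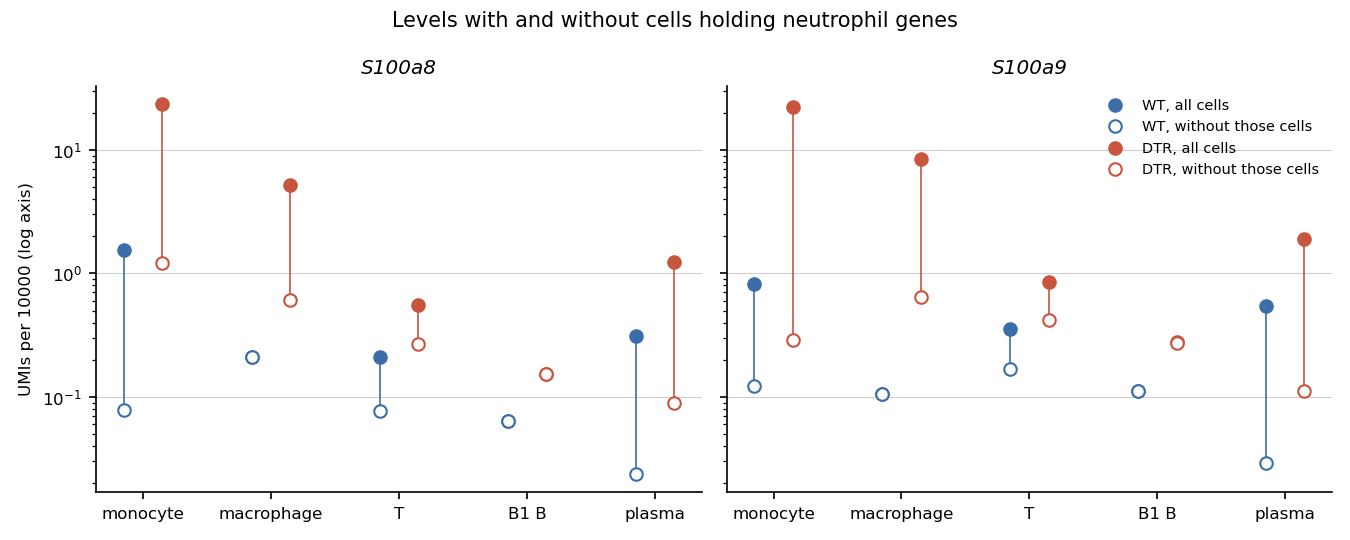
Levels of S100a8 (left) and S100a9 (right) in UMIs per 10000 (vertical log axis) in 5 classes, over all cells of the class (filled) and without the cells that hold UMIs of several neutrophil genes (open), 1 point per library. In DTR macrophage-like cells S100a8 goes from 5.17 to 0.604, and in B1 B-like cells it stays near 0.154.

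In monocyte-like cells of DTR the pair came from many cells. Cells with neutrophil or primary granule genes were 53 of 169 in WT and 178 of 221 in DTR. Leaving these cells out kept 116 in WT and 43 in DTR, so most of the DTR class was removed. This holds for every monocyte-like ratio given below without them. Primary granule genes were present in the class in both libraries, with Prtn3 at 7.18 and 13.4, Elane at 2.51 and 3.92 and Mpo at 2.46 and 1.74. At a finer resolution of 1.6 the class held 111 and 144 cells, in which the log2 ratio of S100a8 was 8.62 in place of 3.92, and cells chosen by gates gave 1.68. For S100a9 the ratio was 7.57 at that resolution and 1.22 with gates, in place of 4.77. In DTR the median cell stood at 4.06 S100a8 UMIs per 10000 and the 90th percentile at 64.4, against 0 and 0.872 in WT. S100a8 made up 70.4% of the pair's UMIs in WT (interval 66.6 to 73.9) and 52.4% in DTR (51.5 to 53.2), above the 38.7% to 39.8% of neutrophil-like cells. The share of the pair that came from S100a8 was thus higher in monocyte-like than in neutrophil-like cells beyond counting error. The intervals treat UMIs as independent and leave out the spread between cells.

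S100a6 was a second gene of high level in neutrophil-like cells, and its mean over the class was higher in DTR. It stood at 79.1 in WT and 101 in DTR (log2 ratio 0.35), from 14189 and 29426 UMIs. On summed UMIs the log2 ratio was 0.71 (interval 0.68 to 0.74), which is past 1.5-fold, so the call depends on whether cells or UMIs are weighted alike. Cluster 13 was higher in DTR, at 68.5 in WT and 107 in DTR (0.65). The mature cluster 7 was lower, at 114 and 97.7 (-0.22), as the calprotectin genes were there. Cluster 7 held 56 of the 240 WT cells and 475 of the 740 DTR cells, so no direction is read for the class. In granulocyte precursor-like cells S100a6 stood at 3.30 and 10.6, a log2 ratio of 1.68 (from summed UMIs 1.63, interval 1.52 to 1.73), and it was the only one of 6 members ranked there past 1.5-fold, where 4.54% of 7093 genes were at least that much higher and 8.6% lower. After thinning, 20.8% of the WT precursors held a UMI of S100a6 (interval 13.96 to 29.2) and 42.6% of the DTR precursors (35.8 to 49.6). Of the 8 memory and effector T genes measured beside them, Lgals3 and Anxa2 were at least 1.5-fold higher in DTR precursors and Itgb1 and Crip1 at least 1.5-fold lower. Stage genes differed in these precursors too. In DTR 3 of 4 primary granule genes were at least 1.5-fold lower. Higher by that much were 3 of 5 mature neutrophil genes (Il1b, Il1r2 and Cxcl2) and, of 6 secondary and tertiary granule genes, 1 (Mmp8). The part of stage in the S100a6 ratio was not tested.

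Among lymphocytes S100a6 separated B1 from B2 B cells. B1 B-like cells stood at 22.1 in WT and 23.4 in DTR (log2 ratio 0.08), and B2 B-like cells at 2.47 and 1.94. After thinning, 68.0% and 71.2% of B1 B-like cells held a UMI, against 15.4% and 12.3% of B2 B-like cells. Plasma-like cells stood at 0.748 and 0.474 (-0.66). In that class leaving out cells with neutrophil genes moved the ratio to -1.30, and leaving out called doublets moved it to -1.26. Equal make-up of clusters (-0.45) and a pseudocount of 0.1 (-0.56) brought it inside the 1.5-fold limit. Monocyte-like cells stood at 17.3 and 22.7 (0.39, or -0.42 without the cells that held neutrophil genes), macrophage-like cells at 6.497 and 7.99 (0.30) and T-like cells at 9.68 and 9.07 (-0.09).

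S100a11, like S100a6, was highest in neutrophil-like cells. Neutrophil-like cells stood at 57.1 in WT and 69.8 in DTR (log2 ratio 0.29), and within clusters the ratios were 0.09 in cluster 13 and -0.22 in cluster 7, where the level was higher (94.9 and 81.6 against 45.6 and 48.7). With equal make-up of clusters the ratio of the class was -0.12, so no direction is read. Precursor-like cells stood at 13.2 and 15.3. Monocyte-like cells stood at 8.72 and 14.6 (0.75), where 5.41% of 6527 genes were at least 1.5-fold higher. From summed UMIs it was 0.49, under the limit, and without the cells that held neutrophil genes it was -0.14. T-like cells stood at 7.28 and 5.49 (-0.41), B1 B-like cells at 5.36 and 3.18 (-0.75) and macrophage-like cells at 1.59 and 1.54 (-0.05). The ratio in B1 B-like cells was past 1.5-fold, where 6.36% of 8024 genes were at least that much lower.

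**Figure D3:**
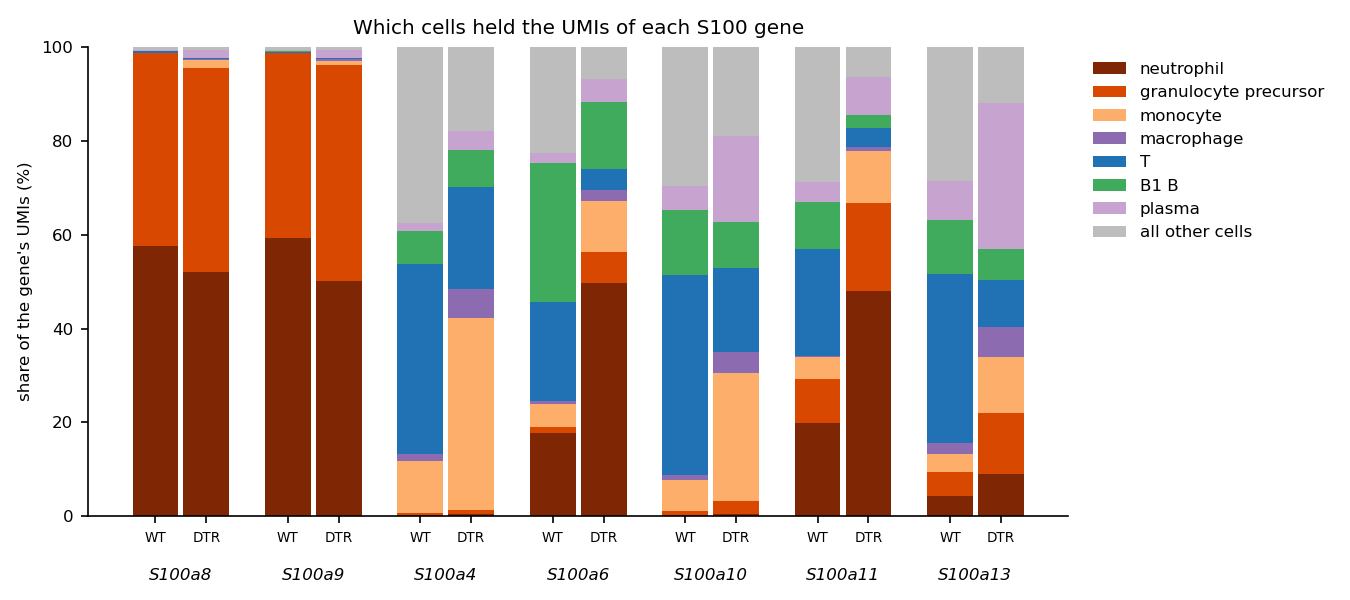
Share of each gene's UMIs (%) that fell in each class, as stacked bars from 0 to 100, for the WT and the DTR library. S100a8 and S100a9 came almost wholly from neutrophil-like and precursor-like cells in both libraries, whereas for S100a6 those 2 classes held 18.9% in WT and 56.2% in DTR.

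The numbers of cells differed between the libraries as well. The neutrophil-like share of the S100a8 UMIs was 57.6% in WT and 52.0% in DTR, and of the S100a9 UMIs 59.2% and 50.1%. Neutrophil-like and precursor-like cells held 18.9% of the S100a6 UMIs in WT and 56.2% in DTR, and 29.2% and 66.6% of the S100a11 UMIs, while neutrophil-like cells went from 2.77% to 12.9% of all cells. T-like cells held 42.7% of the S100a10 UMIs in WT and 17.8% in DTR, while they went from 36.4% to 8.85% of all cells. For S100a4 the largest shares in WT were those of T-like cells (40.5%) and dendritic (DC)-like cells (29.9%), and in DTR those of monocyte-like (40.9%) and T-like cells (21.7%).

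S100a4 was most abundant in monocyte-like, DC-like and some T-like cells. It was highest in DC-like cells in WT (10.3, against 6.47 in DTR) and in monocyte-like cells in DTR (8.32, against 9.28 in WT), and these 2 were not separated by counting error in DTR. Without thinning, at median depths of 10594 and 10891 UMIs, a UMI of S100a4 was found in 94.7% and 95.0% of monocyte-like cells. The log2 ratio in that class was -0.16 (-0.69 without the cells that held neutrophil genes). Macrophage-like cells stood at 3.50 and 2.54 (-0.46, from summed UMIs -0.80), B1 B-like cells at 1.11 and 1.28 (0.20) and T-like cells at 4.13 and 3.47 (-0.25). In T-like cells summed UMIs gave 0.07 (interval -0.02 to 0.16), so no direction is read there. Neutrophil-like cells (0.150 and 0.0579) and plasma-like cells (0.141 and 0.0398) were near the 0.0945 and 0.0455 of B2 B-like cells. The ratio in plasma-like cells (-1.83) was -0.43 after thinning, inside the limit, so no change is read from it.

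Within T-like cells S100a4 and S100a6 went from nearly absent to abundant. In cluster 11, called by the naive CD4 list (Ccr7 at 7.03), S100a4 stood at 0.0315 in WT and S100a6 at 0.378. In cluster 4, called by the γδ list, they stood at 13.3 and 26.0 in WT and 11.5 and 20.9 in DTR. S100a6 was as low in cluster 20 (CD8 list, Ccr7 at 9.29), at 0.295 in WT, and the other clusters lay between, at 7.71 in cluster 3 (regulatory T list), 7.96 in cluster 6 (CD8 list), 8.06 in cluster 5 (NKT list) and 10.2 in the cycling cluster 23. S100a4 did not keep that order, at 1.28 in cluster 5 against 7.26 in cluster 23. Of the memory and effector T genes, Lgals1 stood at 1.91 in cluster 11, 12.5 in cluster 4 and 17.8 in cluster 23 in WT, and Ahnak at 0.244, 9.97 and 4.34. Cluster 11 made up 439 of the 3146 WT T-like cells and 24 of the 507 DTR cells, and with equal make-up of clusters the log2 ratio of S100a6 in T-like cells was -0.19.

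Among leukocytes S100a10 was highest in NK-like cells, with T-like cells next in WT. In WT T-like cells it stood at 9.82 and in DTR at 7.52 (log2 ratio -0.38), and in NK-like cells at 11.8 and 9.14. Unlike S100a6 it was present in naive CD4 cells, at 2.97 in WT and 2.30 in DTR, and it reached 17.0 and 11.2 in cluster 4. All 7 T-like clusters were lower in DTR, with log2 ratios from -0.73 to -0.19. Monocyte-like cells stood at 7.13 and 8.42 (0.24, or -1.15 without the cells that held neutrophil genes), macrophage-like cells at 5.91 and 4.09 (-0.53, from summed UMIs -0.81), B1 B-like cells at 5.21 and 3.596 (-0.54) and B2 B-like cells at 2.44 and 2.25. Neutrophil-like cells were lowest, at 0.356 and 0.0916, so S100a10 was scarce where S100a11 was most abundant. The ratio there (-1.96) came from 130 and 57 UMIs, and with cells chosen by gates it was 0.42, so no direction is read.

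S100a13 had the narrowest range over the 6 classes. The 6 classes ranged from 0.426 in plasma-like cells to 3.24 in macrophage-like cells in WT and from 0.273 to 2.18 in DTR. The log2 ratios ran from -0.64 in plasma-like cells to 0.22 in monocyte-like cells (-1.08 there without the cells that held neutrophil genes), with -0.58 in macrophage-like cells, just inside the 1.5-fold limit (-0.73 from summed UMIs), and -0.48 in neutrophil-like cells. In neutrophil-like cells it was present in cluster 13 (2.12 and 2.06) and lower in cluster 7 (0.851 and 0.894), and with equal make-up the ratio was -0.00468.

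**Figure D4:**
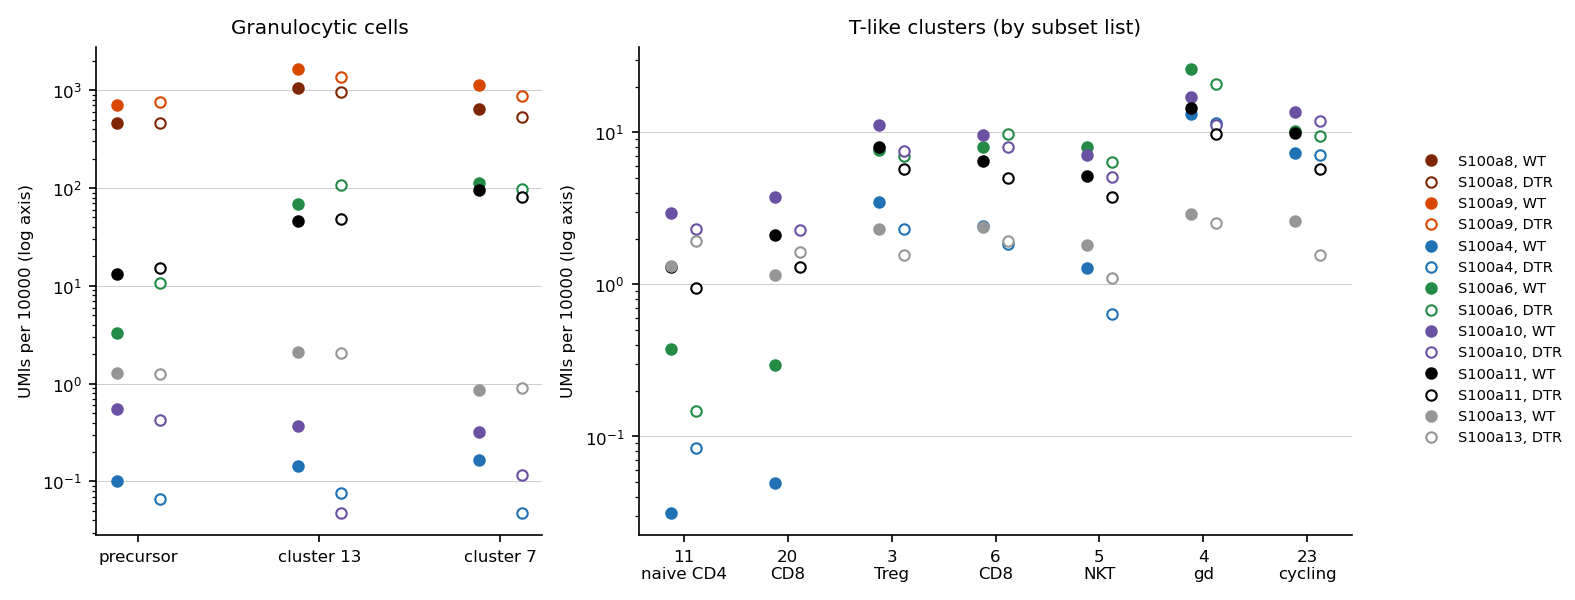
Levels in UMIs per 10000 (vertical log axes) along the granulocytic cells (left) and in the 7 T-like clusters (right), with WT filled and DTR open, 1 point per library. Values of 0 are not drawn, and S100a8 and S100a9 are left out on the right. S100a10 stays under 1 on the left where S100a11 reaches 94.9, and S100a4 and S100a6 span the widest range on the right.

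In plasma-like cells most of the members were lower in DTR. Of the 7 genes, 5 were at least 1.5-fold lower in DTR (S100a4, S100a6, S100a10, S100a11 and S100a13), where 13.8% of 10007 genes were at least that much lower, and 2 were higher (S100a8 and S100a9), where 11.5% were. The count of 5 includes S100a6, which was inside the limit with equal make-up or a pseudocount of 0.1, S100a13, which was inside it with that pseudocount (-0.50), and S100a4, which was inside it after thinning. S100a10 stood at 0.967 in WT and 0.411 in DTR (log2 ratio -1.24, from summed UMIs -1.28, interval -1.37 to -1.19) and S100a11 at 1.14 and 0.543 (-1.07, from summed UMIs -1.08, interval -1.16 to -1.003). Both were lower in each of the 5 plasma-like clusters, with log2 ratios from -1.70 to -1.08 for S100a10 and from -1.68 to -0.48 for S100a11, where from summed UMIs cluster 19 gave 0.28 for S100a11. After thinning, S100a10 was found in 10.0% of WT plasma-like cells (interval 7.75 to 12.6) and 4.32% of DTR cells (3.51 to 5.25), against 3.36% and 0.834% of neutrophil-like cells, which nearly lack it. Genes of naive T cells, which plasma cells should lack, were also lower in DTR plasma-like cells, for 5 of 6 (median log2 ratio -1.63), as were 5 of 8 memory and effector T genes (median -0.94). Their part in the lower S100 levels was not tested.

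Over the 6 classes 40 of the 42 gene and class pairs had at least 100 UMIs over both libraries and were ranked. Of these, 10 were at least 1.5-fold higher in DTR, 7 at least 1.5-fold lower and 23 lay between. Among the 10, 9 were S100a8 or S100a9 outside the neutrophil-like class, and the other was S100a11 in monocyte-like cells. The 9 include S100a9 in B1 B-like cells, where its levels were below those of B2 B-like cells. The S100a11 ratio changed sign without the cells that held neutrophil genes. Of the 7 lower pairs, 5 were in plasma-like cells, and the others were S100a10 in neutrophil-like and S100a11 in B1 B-like cells. No direction was read for S100a10 in neutrophil-like cells, as given above. By class, the ranked members past the limit were 2 higher of 7 in T-like cells (7.65% of 9381 genes higher, 5.93% lower). In macrophage-like cells they were 2 higher of 7 (11.5% of 2903 higher, 16.7% lower). In monocyte-like cells they were 3 higher of 7 (5.41% of 6527 higher, 13.5% lower). B1 B-like cells had 1 higher and 1 lower of 6 (6.46% of 8024 higher, 6.36% lower). Neutrophil-like cells had 1 lower of 6 (18.3% of 4257 higher, 9.16% lower). Since the members share libraries and cells, these counts are a description.

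**Figure D5:**
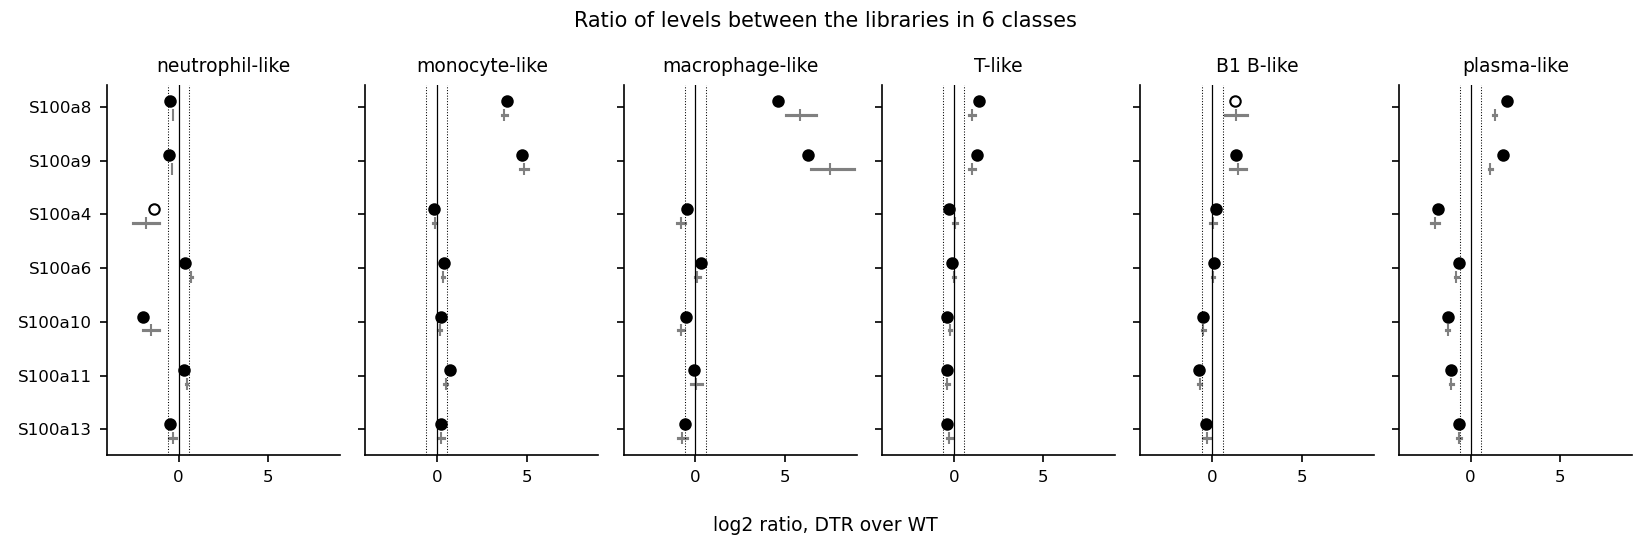
Log2 ratio of DTR over WT (horizontal axis) of the 7 S100 genes in 6 classes, as the ratio of mean levels over cells (black points, open where under 100 UMIs) and the ratio of summed UMIs with its exact 95% counting interval (grey), with dotted lines at 1.5-fold. S100a8 and S100a9 lie right of the dotted lines in all classes but the neutrophil-like one, and the plasma-like panel has 5 genes to the left.

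Of 11 genes that encode S100 partners and receptors, 7 to 8 were ranked in each class, and over the 6 classes 5 of 46 pairs were at least 1.5-fold higher in DTR and 9 at least 1.5-fold lower. Over all genes the shares by class were 5.41% to 18.3% higher and 5.93% to 16.7% lower. Anxa1, the S100a11 partner, stood at 36.4 in WT and 27.2 in DTR neutrophil-like cells and at 23.4 and 38.95 in precursor-like cells. Within the neutrophil-like clusters Anxa1 was higher in DTR, at 11.1 and 15.5 in cluster 7 and at 44.1 and 48.1 in cluster 13. No direction is read for the neutrophil-like class. Anxa2, the S100a10 partner, stood at 11.9 and 12.7 in neutrophil-like cells, in which S100a10 was scarce. Anxa2, Ahnak, Myh9 and Tlr4 were lower in DTR plasma-like cells, with Anxa2 at a log2 ratio of -1.37 and Ahnak at -1.03, in the class where S100a10 was lower too. Tlr4, a calprotectin receptor, was at 0.142 and 0.591 in neutrophil-like cells, and Ager had under 100 UMIs in each class.

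The 9 further listed S100 genes were mostly near 0. S100a1 gave 2381 UMIs in WT and 2384 in DTR and was highest in stromal-like (3.56 and 2.14) and macrophage-like cells (2.41 and 2.34). S100a16 gave 316 and 117 UMIs and was also highest in stromal-like cells (2.57 and 1.90). The other 7 gave at most 80 UMIs in a library.

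Across 25 profiles (a class in a library with at least 30 cells), the genes closest to S100a8 in log2 level were Lcn2, Wfdc21 and Camp (Pearson r 0.98, 0.97 and 0.96 over 6916 genes compared), and S100a9 and S100a8 had r = 0.99 with each other. S100a10 was nearest to Ccdc85b and Ahnak (0.92 and 0.90), S100a11 to Atxn10 and Lmnb1 (0.91 for both), S100a13 to Ppp2r5c (0.89), S100a6 to Stk38 (0.84) and S100a4 to Cyp4f16 (0.84). Among the members, S100a4 and S100a10 had r = 0.75, S100a6 and S100a11 0.76, and S100a9 and S100a10 -0.65. The profiles come from the same 2 libraries, so these values carry no test.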

How the data were processed

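Leukocytes of the omentum were captured in droplets. Per the labels a 5′ kit and Cell Ranger 6.0.0 with the mm10 genome were used, whereas the methods name a 3′ kit. The deposited values are natural log values of 1 plus the UMIs of a gene scaled to 10000 per cell. UMIs were recovered by dividing by each cell's step, and 99.95% of WT and 99.89% of DTR values were whole within 0.1 UMI. Cells with 200 to 7500 genes and at most 25% mitochondrial UMIs were kept. They were clustered with Seurat 5.3.0 (sctransform 0.4.2, 3000 variable features without S100 genes or antigen receptor segments, 30 components, resolution 0.8) and named from marker lists. A level is the mean over cells of UMIs per 10000. A gene was ranked in a class where its UMIs summed to 100 or more in the 2 libraries, with a limit of 1.5-fold. With 1 library per group no test was run, and intervals cover counting error only. Scrublet (scanpy 1.11.5) called 2 of 8654 WT cells, so it did not work there, and 103 of 5727 DTR cells. The genes named are the 7 members, genes of the marker and partner lists and the 3 most alike genes. Members and lists were chosen with earlier results of these data known. Promoters were matched by symbol. Other settings, including cells holding neutrophil genes left out (chosen after seeing the data), are given in the closing section.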

Additional observations from a re-analysis of the deposited data

Results flagged for a closer look

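S100a4 was also high in cells outside the classes compared. Cluster 25, with Il22 and Dll1 among its leading genes, could not be named from the markers and held 55 WT and 49 DTR cells. S100a4 stood there at 12.5 UMIs per 10000 in WT and 6.76 in DTR, above its level in B2 B-like cells (0.0945 and 0.0455). The difference between the libraries has no replicate check.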

How the results depend on the processing

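No paired analysis was possible because each group is 1 library and no test was run. Several log2 ratios of DTR over WT changed sign under a setting, and those in monocyte-like, neutrophil-like and plasma-like cells that bear on the text stand beside the results. In T-like cells S100a4 and S100a6 changed sign, since their summed UMIs gave 0.070 and 0.024 (0.064 and 0.018 with reduced totals) in place of -0.25 and -0.09. The cause was not tested for any value here.

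In neutrophil-like cells S100a8 (-0.48) and S100a9 (-0.54) were -0.30 and -0.37 from summed UMIs, -0.33 and -0.40 with reduced totals, -0.60 and -0.66 with the class median at 0 and -0.59 and -0.63 with gates on marker UMIs (all past 1.5-fold), -0.46 and -0.52 without doublets, -0.49 and -0.55 without shared barcodes, and -0.19 and -0.31 with equal make-up of clusters. In T-like cells S100a8 (1.40) and S100a9 (1.27) were 0.9996 and 1.02 from summed UMIs, 0.99 and 1.0102 with reduced totals, 0.41 and 0.33 with the S100 genes among the variable features, 1.64 and 1.04 thinned to 1000 UMIs, 1.08 and 1.07 with a pseudocount of 0.1, 1.05 and 0.86 without the top cell of each library, and 0.98 and 0.89 with equal make-up. S100a8 was 1.80 without cells holding neutrophil genes, a setting chosen after seeing the data, and S100a9 was 1.57 with gates.

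S100a4 in T-like cells was -0.16 without the NKT cluster and -0.47 when thinned, and S100a6 was -0.013 with gates and -0.19 with equal make-up. S100a6 in plasma-like cells (-0.66) was -0.81 from summed UMIs, -0.80 with reduced totals, -1.08 with gates, -1.26 without doublets, -1.30 without cells holding neutrophil genes, -0.56 with a pseudocount of 0.1 and -0.45 with equal make-up, the last pair inside the 1.5-fold limit. S100a10 in macrophage-like cells (-0.53) was -0.81 from summed UMIs, past the limit. The 7 pairs at least 1.5-fold lower became 11 with gates and 4 at a limit of 2-fold. They became 10 from summed UMIs and 5 with a pseudocount of 0.1. The 10 higher pairs became 8 with gates, 8 without doublets and 11 thinned to 1000 UMIs. Shares over all genes are not given at these settings, so the counts are a description. Depth limits the pairs with few UMIs, such as S100a8 in B1 B-like cells (51 and 43).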
